A study of Mus musculus with 6 samples.

Results

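The enzymes described here carry pyruvate and fatty acids into the tricarboxylic acid (TCA) cycle of mouse neutrophils. The set holds 39 genes, chosen by name as genes of pyruvate entry, the TCA cycle and mitochondrial fatty acid beta-oxidation, out of 51789 genes in the count table. All 39 were found by symbol; 37 passed the filter on low counts and were tested, and Pdp1 and Pcx did not. RNA came from neutrophils selected from mouse bone marrow with beads against Ly6G, a neutrophil surface protein, at a stated purity above 95%. The 6 libraries form 2 groups of 3: WT, labelled as control for Snph, and KO, labelled as Snph knockout. Snph encodes syntaphilin, which holds mitochondria in place on microtubules, and the series title places it in neutrophil migration in cancer. The sources used here do not give the strain, age, treatment or design of the knockout allele. Nor do they tie the samples to separate animals, so a p-value reflects how far these samples scatter, and that scatter may be technical.

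The TCA cycle oxidises acetyl-CoA and hands the electrons to the respiratory chain. Pyruvate enters it through the pyruvate dehydrogenase complex or pyruvate carboxylase, and fatty acids enter after they are shortened in rounds of beta-oxidation. Neutrophils are known for relying mainly on glycolysis, have few mitochondria when mature, and use fatty acid oxidation during their maturation in the bone marrow.

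Promoter sequences show what some of these genes share. The genes of the alpha and beta subunits of the mitochondrial trifunctional protein, Hadha and Hadhb, lie head to head on chromosome 5: the RefSeq starts (GRCm38.p6) at 30154980 on the minus strand and 30155253 on the plus strand leave 272 bases between them. Their promoter windows, 250 bases before to 50 after the start, share 228 bases, printed in capitals in the Hadhb window (chr5:30155003-30155302, plus strand). The windows of Cpt1a (chr19:3323051-3323350, plus strand), Mdh2 (chr5:135778399-135778698, plus strand) and Hadh (chr3:131272052-131272351, minus strand) are shown because these genes lay among those with the smallest p below. Idh2, whose p lay between those of Cpt1a and Mdh2, is not shown. Gene spans given below are from the GENCODE vM21 annotation, whose starts differ from RefSeq for some genes. They are 30155162 for Hadha, 30155248 for Hadhb, 3322334 for Cpt1a and 135778480 for Mdh2. By that annotation the Cpt1a window lies inside the gene, and the Mdh2 start lies within its window. Capitals in the windows of Cpt1a, Mdh2 and Hadh mark GGGCGG and AGGTCA on either strand. GGGCGG is the GC box bound by Sp1, and AGGTCA the core element of many nuclear receptor sites.
Hadhb: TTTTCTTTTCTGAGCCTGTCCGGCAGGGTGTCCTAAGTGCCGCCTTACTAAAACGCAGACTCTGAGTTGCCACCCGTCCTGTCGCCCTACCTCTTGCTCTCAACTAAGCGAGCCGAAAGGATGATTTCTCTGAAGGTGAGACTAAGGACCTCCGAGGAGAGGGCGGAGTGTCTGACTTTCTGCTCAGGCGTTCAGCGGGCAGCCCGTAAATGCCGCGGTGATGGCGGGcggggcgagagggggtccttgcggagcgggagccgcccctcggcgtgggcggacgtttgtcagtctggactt
Cpt1a: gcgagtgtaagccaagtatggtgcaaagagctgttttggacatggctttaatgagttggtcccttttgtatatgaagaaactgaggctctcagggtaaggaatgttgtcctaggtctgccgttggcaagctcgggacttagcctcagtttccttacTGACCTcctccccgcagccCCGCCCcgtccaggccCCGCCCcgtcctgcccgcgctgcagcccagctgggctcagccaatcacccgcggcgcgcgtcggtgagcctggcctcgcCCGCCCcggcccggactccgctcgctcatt
Mdh2: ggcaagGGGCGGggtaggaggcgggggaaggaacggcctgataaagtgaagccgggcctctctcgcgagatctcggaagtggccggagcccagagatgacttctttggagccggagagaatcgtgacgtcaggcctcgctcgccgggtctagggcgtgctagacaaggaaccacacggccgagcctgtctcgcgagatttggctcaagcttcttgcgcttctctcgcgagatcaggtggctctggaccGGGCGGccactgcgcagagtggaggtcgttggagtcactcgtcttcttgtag
Hadh: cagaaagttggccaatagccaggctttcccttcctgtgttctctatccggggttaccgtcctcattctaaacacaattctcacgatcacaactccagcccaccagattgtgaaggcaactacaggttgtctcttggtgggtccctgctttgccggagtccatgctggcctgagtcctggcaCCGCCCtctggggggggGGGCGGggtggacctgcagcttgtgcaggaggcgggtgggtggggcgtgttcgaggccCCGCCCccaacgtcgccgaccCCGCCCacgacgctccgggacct

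Of the 39 genes, 37 had a window in the RefSeq table. GGGCGG was found on either strand in 29 of them (78.4%), against 38.2% of 27025 genes, and the median GC content was 62% in their windows and 52.7% over all genes. AGGTCA was found in 10 (27.0%, against 18.1% of all genes), among them Cpt1a, Acadm and Acadvl. CCGGAAG, an ETS site as bound by GABP, was found in 4 (10.8%, against 9.93%), and GCGCATGC, the core of the NRF1 site, in 4 (10.8%, against 3.05%): Acadm, Etfa, Etfdh and Ogdh. TCAAGGTCA, a site of ERR receptors that contains AGGTCA, was in none, against 0.466% of all genes. These shares compare with every named gene that has a window, not with the 10397 tested genes. They do not show whether the set differs from other expressed genes. A match describes these letters only.

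Total counts ran from 7018388 to 9664381 per library, so that 1 count was worth 0.102 to 0.147 CPM (a count scaled to a common library size with TMM factors). The 39 genes took 0.133% to 0.144% of the counts of a library. Snph itself was at 0 counts in each WT library and at 5, 2 and 8 counts in KO 1, 2 and 3, which goes against the labels. The sources used here do not say which exons were deleted, and directions below rest on the labels as they stand. Neutrophil markers dominated all libraries (the 10 markers summed to 273100 to 331500 CPM), with S100a8 and Retnlg called higher. Of 11 macrophage markers, 10 were called lower in the KO-labelled libraries (C1qa, C1qb, C1qc, Cd5l, Cd163, Mrc1, Vcam1, Adgre1, Axl and Spic) and Csf1r was not; the list summed to 1339 to 1397 CPM in WT and 688 to 831 CPM in KO. The most abundant of them were Vcam1 (365 ± 26 CPM in WT and 178.7 ± 31 CPM in KO; SD, n = 3) and Csf1r (183.5 ± 14 and 182.1 ± 18 CPM). Of 6 platelet markers 3 were called lower (Pf4, Ppbp, Itga2b), of 4 tested eosinophil and basophil markers 1 (Ccr3), and of 7 B and plasma cell markers 3 were called higher (Igkc, Jchain, Igha). No marker was called among 6 of early neutrophil precursors, 8 of proliferating cells, 5 tested of monocytes, 8 of erythroid cells and 1 tested of T and NK cells. In bulk libraries, fewer cells of a type and less RNA per cell cannot be told apart.

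No single gene of the set passed the test, and the summed level of all 39 genes, at 1344 to 1399 CPM in WT and 1406 to 1469 CPM in KO, was slightly higher in every KO library. That difference rested on Mdh2: the other 38 genes summed to 1059 to 1089 CPM in WT and 1042 to 1107 CPM in KO, with overlapping groups. At an adjusted p under 0.05 (edgeR's quasi-likelihood test, Benjamini-Hochberg over 10397 genes), 0 of the 37 tested genes differed, against 1.03% of all genes (107 genes, 76.6% of them lower in KO; 162 genes with 88.9% lower when libraries were scaled to their total counts). limma-voom also called 0 of 37 (0.789% of all genes), and DESeq2 called 1, Mdh2 (1.33% of all genes). At an unadjusted p under 0.05, 8 of 37 differed (21.6%, against 11.4% of all genes), 3 higher and 5 lower in KO. The set was chosen with earlier results of these data known, so shares in it are description and no test of the set. The groups did not overlap for 3 genes that were higher in KO (8.11%, against 7.48% of all genes) and for 5 that were lower (13.5%, against 9.32%). The median log2 fold change (KO over WT) was -0.016 for the 37 genes and 0.0057 for all genes, with 18 genes above and 19 below 0. For 21 genes (56.8%, against 50.8% of all genes) the 95% interval of the difference lay within 1.5-fold in either direction, and for 28 it lay within 2-fold.

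**Figure D1:**
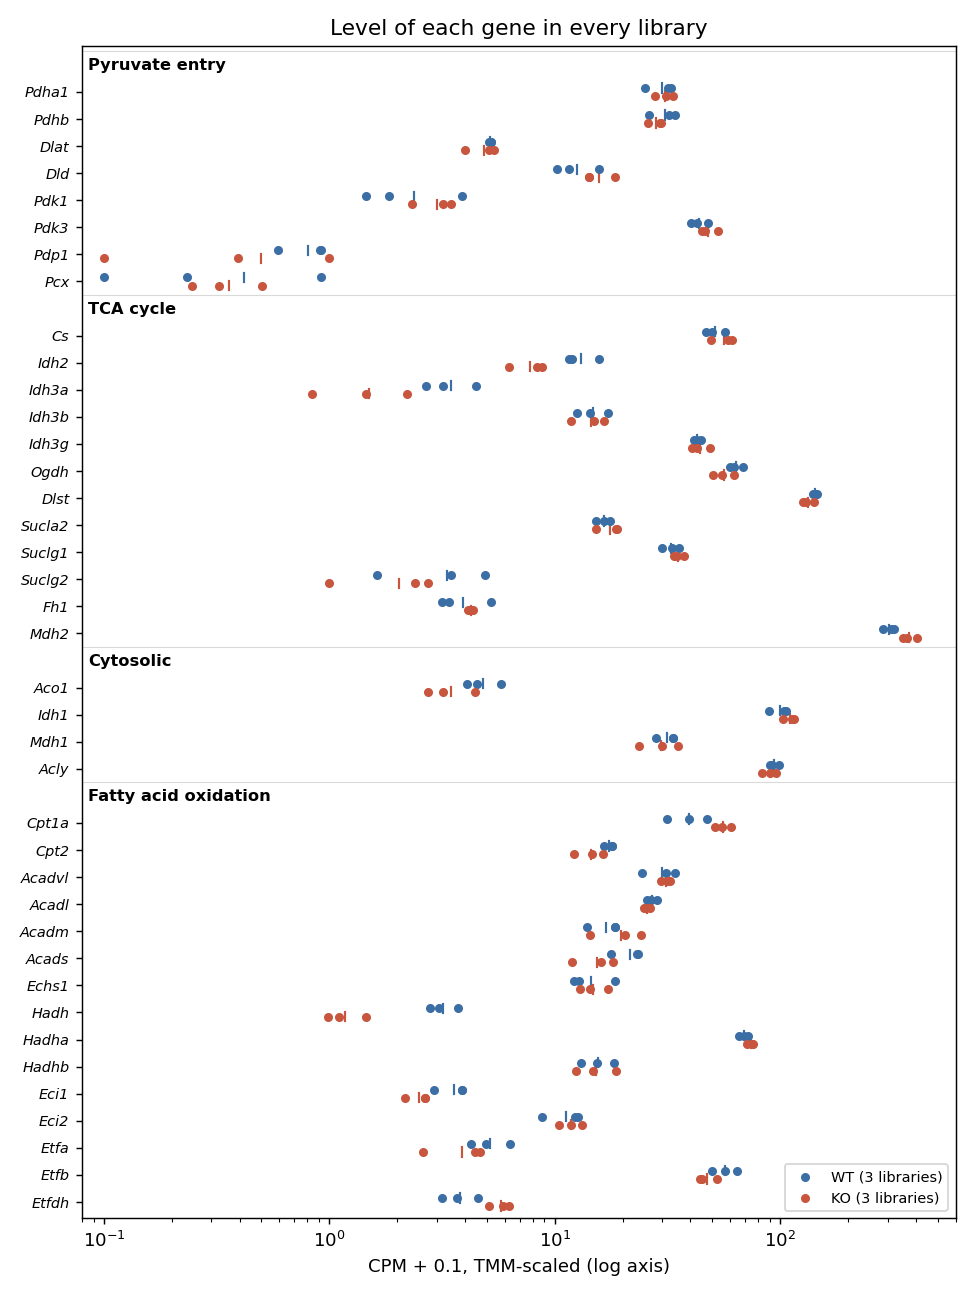
Level of each of the 39 genes in every library, as CPM + 0.1 on a log axis; points are libraries (blue WT, red KO), short vertical lines the means of 3 libraries, and genes are grouped by role. Levels run from 0.288 CPM for Pcx to 339 CPM for Mdh2 (means of all 6 libraries), and the colours lie close together for most genes.

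**Figure D2:**
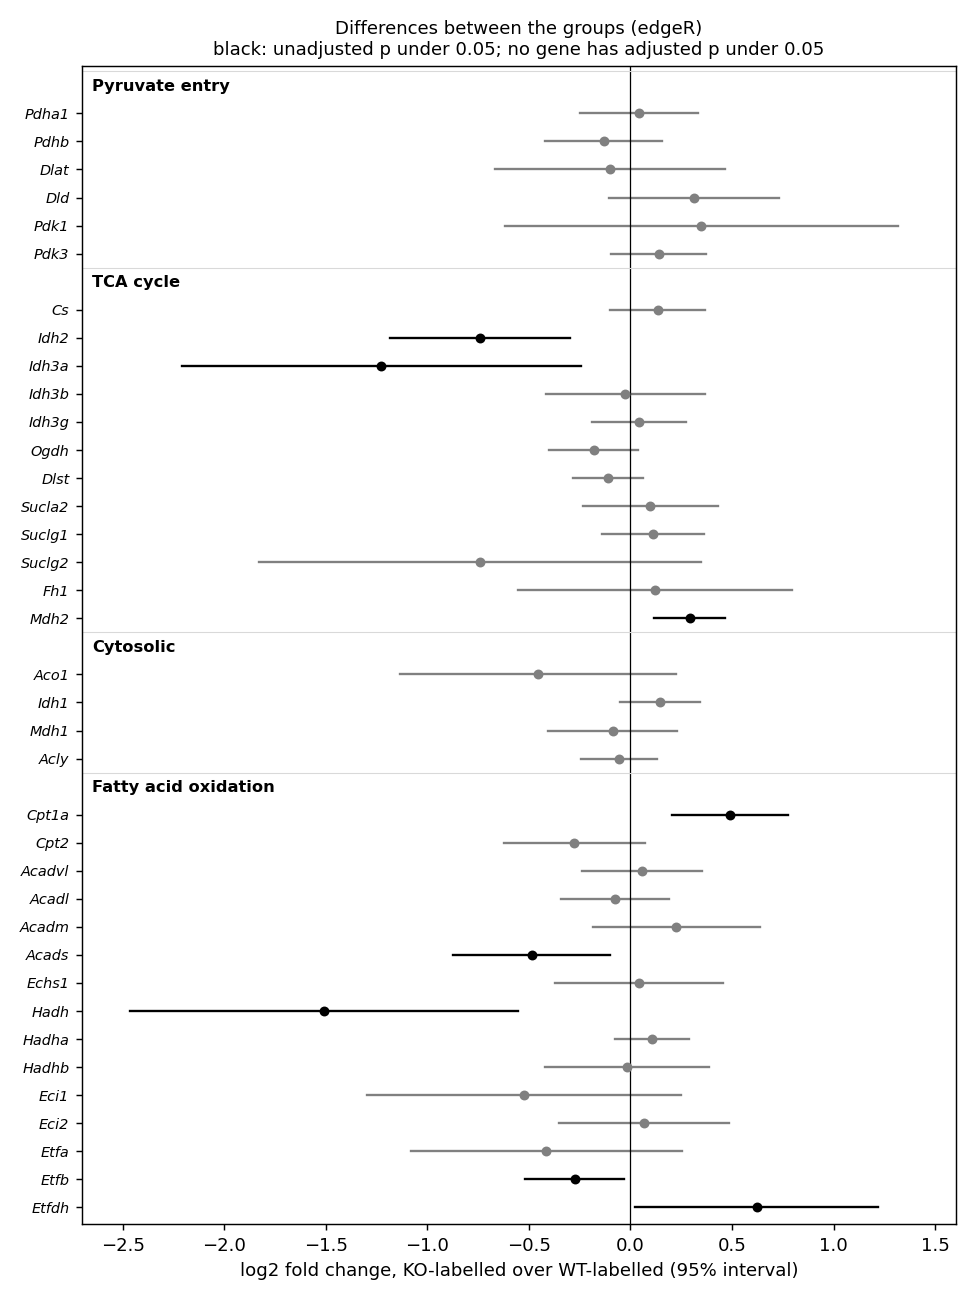
Log2 fold change of the 37 tested genes, KO-labelled over WT-labelled, with 95% intervals from edgeR; black marks the 8 genes with an unadjusted p under 0.05. The points spread on both sides of 0, from -1.51 (Hadh) to 0.62 (Etfdh), and intervals are widest for genes of low level.

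Each transcript gives about 1 tag at its 3′ end in these libraries, so levels in CPM are compared between genes without dividing by length; the site of priming can still change how well a gene is counted. Mdh2, at 339 CPM over all 6 libraries, was above 96.7% of tested genes. It was followed by Dlst (138 CPM), Idh1 (105 CPM), Acly (91.8 CPM) and Hadha (71.5 CPM). At the other end, Hadh was the lowest of the tested genes of the set at 2.09 CPM, and Pdp1 and Pcx, under the filter, were at 0.551 and 0.288 CPM.

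The 8 genes of pyruvate entry ranged from 45.7 CPM (Pdk3) to 0.288 CPM (Pcx) over all libraries, and groups overlapped for all of them. Pdha1 and Pdhb encode the alpha and beta subunits of pyruvate dehydrogenase. Pdha1 was at 25.2, 32.6 and 31.7 CPM in WT 1, 2 and 3 and at 27.8, 33.4 and 31.0 CPM in KO 1, 2 and 3. Pdhb was at 31.9, 34.2 and 26.1 CPM in WT and at 29.4, 25.7 and 29.2 CPM in KO. The groups overlapped for both subunits, whose levels were about equal, and the log2 fold changes were 0.04 (95% interval -0.25 to 0.33) and -0.13 (-0.42 to 0.16). Exons of Pdha1 (1470 counts over all libraries) overlap those of Map3k15 (1544 counts) on the other strand. The sources used here give no strand setting for the counting, so it is not known whether reads of both genes were mixed. All exons were compared, and whether an overlap lies at the 3′ end was not examined. Dlat, the acetyltransferase core of the complex, was lower in level, at 5.09 ± 0.050 CPM in WT and 4.74 ± 0.73 CPM in KO (SD, n = 3). Dld, the lipoamide dehydrogenase that the complex shares with 2-oxoglutarate dehydrogenase, was at 11.5, 15.6 and 10.1 CPM in WT and at 18.5, 14.1 and 14.1 CPM in KO. WT 2 lay above KO 2 and KO 3 for Dld, and the difference (log2 0.31, SE 0.20) did not pass the test (adjusted p = 0.609, edgeR).

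Pyruvate dehydrogenase is switched off by its kinases and on by its phosphatases. The kinase gene Pdk3 was the more abundant of the 2 kinases in the set, at 42.7, 47.7 and 40.0 CPM in WT and 46.1, 44.9 and 52.7 CPM in KO, with overlapping groups (log2 0.14, SE 0.11). The kinase gene Pdk1, a target of hypoxia-inducible factor, was at 2.29 ± 1.3 CPM in WT and 2.90 ± 0.59 CPM in KO (SD, n = 3). Of the kinase genes outside the set, Pdk2 was at 1.595, 1.12 and 1.35 CPM in WT and at 3.10, 3.09 and 2.23 CPM in KO; these groups did not overlap, and the difference was not called (log2 1.04, SE 0.44, adjusted p = 0.380, edgeR). The phosphatase gene Pdp1 had 4, 8 and 6 counts in WT and 0, 2 and 8 in KO. Pcx, the gene of pyruvate carboxylase, had 0, 8 and 1 counts in WT and 3, 1 and 2 in KO. At these counts a difference in Pdp1 or Pcx was not detectable.

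In the TCA cycle, Mdh2 stood above all other genes in level, and Idh2 and Idh3a had lower values in every KO library than in any WT library. Mdh2 (chromosome 5, 135778480 to 135790398, mm10) encodes mitochondrial malate dehydrogenase, the last step of the cycle. It was at 319.6, 310.2 and 284.6 CPM in WT and at 404, 364 and 352 CPM in KO, so that every KO library lay above every WT library. The difference was 1.22-fold (log2 0.29, SE 0.08, 95% interval 0.12 to 0.47) and was not called by edgeR (adjusted p = 0.138). DESeq2 called it (adjusted p = 0.0196), and so did edgeR with no filter on low counts (adjusted p = 0.0442), where 1.46% of all genes were called; over all 14 alternatives the adjusted p ran from 0.0196 to 0.349.

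Isocitrate dehydrogenase exists as an NADP-dependent enzyme, with a mitochondrial form (Idh2) and a cytosolic form (Idh1), and as an NAD-dependent enzyme of the cycle with alpha, beta and gamma subunits (Idh3a, Idh3b, Idh3g). Idh2 (chromosome 7, 80094846 to 80115392) was at 15.6, 11.9 and 11.5 CPM in WT and at 8.22, 6.18 and 8.70 CPM in KO. All WT libraries lay above all KO libraries, at a log2 fold change of -0.74 (SE 0.21, 95% interval -1.18 to -0.30), and the difference was not called (adjusted p = 0.138, edgeR; 0.0503 to 0.472 over the alternatives). Idh3a (chromosome 9, 54586334 to 54604661) was rare, with 21, 43 and 23 counts in WT and 10, 5 and 19 in KO. These correspond to 2.58, 4.39 and 3.10 CPM in WT and 1.35, 0.735 and 2.12 CPM in KO, again without overlap (log2 -1.23, SE 0.46, adjusted p = 0.303, edgeR). The other subunits of the same enzyme differed little: Idh3b was at 14.7 ± 2.3 and 14.4 ± 2.4 CPM, and Idh3g at 42.7 ± 1.6 and 43.95 ± 4.3 CPM, in WT and KO (SD, n = 3). Exons of Idh3b (714 counts) overlap Nop56 (275 counts) on the other strand.

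The remaining genes of the cycle overlapped between groups. Cs, citrate synthase, which joins acetyl-CoA to oxaloacetate, was at 51.2 ± 5.0 CPM in WT and 56.2 ± 6.1 CPM in KO (SD, n = 3). Ogdh and Dlst encode the dehydrogenase and succinyltransferase of the 2-oxoglutarate dehydrogenase complex. Dlst (chromosome 12, 85110833 to 85134845) was at 145, 140.5 and 143 CPM in WT and at 130.2, 126 and 141 CPM in KO. KO 3 lay within the WT range, and the log2 fold change was -0.11 (95% interval -0.28 to 0.06). Ogdh was at 63.6 ± 4.6 CPM in WT and 56.0 ± 6.3 CPM in KO (SD, n = 3; log2 -0.18, SE 0.10). Succinyl-CoA ligase has a common alpha subunit, Suclg1 (32.7 ± 2.9 and 35.3 ± 1.9 CPM in WT and KO; SD, n = 3), which pairs with an ADP-forming or a GDP-forming beta subunit. The ADP-forming subunit gene Sucla2 was at 16.4 ± 1.1 and 17.5 ± 2.1 CPM, and the GDP-forming Suclg2 at 3.23 ± 1.6 and 1.94 ± 0.93 CPM, in WT and KO (SD, n = 3). Suclg2 varied within groups, from 15 to 39 counts in WT and from 8 to 18 in KO. Fh1, fumarase, was at 3.83 ± 1.1 and 4.13 ± 0.099 CPM in WT and KO (SD, n = 3).

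Groups overlapped for each of the 4 cytosolic enzymes that share substrates with the cycle. Idh1 (chromosome 1, 65158616 to 65186500) was at 106, 88.8 and 104 CPM in WT and at 112, 115 and 103 CPM in KO. WT 1 and WT 3 lay above KO 3, and the log2 fold change was 0.15 (95% interval -0.05 to 0.34). Acly, ATP citrate lyase, which splits exported citrate to acetyl-CoA for lipid synthesis, was at 98.9, 90.3 and 91.5 CPM in WT and at 83.2, 90.5 and 96.2 CPM in KO. Its groups overlapped, and the 95% interval of its log2 fold change was -0.24 to 0.13. Mdh1, cytosolic malate dehydrogenase, was at 31.5 ± 3.1 and 29.6 ± 5.8 CPM in WT and KO (SD, n = 3). Aco1, the cytosolic aconitase that doubles as an iron-responsive RNA-binding protein, was at 4.42, 3.99 and 5.66 CPM in WT and at 3.10, 2.65 and 4.35 CPM in KO; KO 3 lay above WT 2 (log2 -0.46, SE 0.32).

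Fatty acid oxidation gave the smallest p of the set, for Cpt1a. Cpt1a (chromosome 19, 3322334 to 3385733) encodes the carnitine palmitoyltransferase of the outer membrane, the controlled step of fatty acid entry into mitochondria. Its levels were 39.5, 47.4 and 31.4 CPM in WT and 55.1, 60.4 and 51.6 CPM in KO, with all KO libraries above all WT libraries. The difference was 1.41-fold (log2 0.49, SE 0.13, 95% interval 0.21 to 0.78) and was not called (adjusted p = 0.121, edgeR). It was called with no filter (adjusted p = 0.00445) and not by DESeq2 (adjusted p = 0.0873); the adjusted p was at most 0.330 over the 14 alternatives. Cpt2, the palmitoyltransferase of the inner membrane, was at 16.4, 17.8 and 17.8 CPM in WT and 12.1, 16.3 and 14.5 CPM in KO, the highest KO library just under the lowest WT library (log2 -0.28, SE 0.16, adjusted p = 0.570, edgeR). Slc25a20, the carnitine-acylcarnitine carrier that works between these enzymes and is no member of the set, was at 25.4, 30.2 and 30.6 CPM in WT and 40.8, 40.0 and 33.5 CPM in KO. Those groups did not overlap either, and the carrier gene was not called (log2 0.40, SE 0.13, adjusted p = 0.194, edgeR).

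The acyl-CoA dehydrogenases take the first oxidation step, each on chains of a given length. Acadvl (very long chains) was at 29.9 ± 5.0 and 31.2 ± 1.5 CPM, Acadl (long chains) at 26.8 ± 1.4 and 25.45 ± 0.90 CPM, and Acadm (medium chains) at 16.8 ± 2.7 and 19.6 ± 4.9 CPM, in WT and KO (SD, n = 3). Exons of Acadvl (1483 counts) overlap Dvl2 (825 counts) on the other strand. Acads (short chains; chromosome 5, 115110299 to 115119346) was at 23.4, 23.2 and 17.7 CPM in WT and at 11.9, 15.9 and 18.1 CPM in KO. KO 3 lay above WT 3, and the log2 fold change was -0.49 (SE 0.18, adjusted p = 0.295, edgeR).

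Hadh had the largest fold change of the set in either direction. Hadh (chromosome 3, 131233419 to 131272101) encodes the hydroxyacyl-CoA dehydrogenase of medium and short chains. It had 22, 29 and 27 counts in WT and 10, 6 and 9 in KO, or 2.70, 2.96 and 3.64 CPM against 1.35, 0.882 and 1.00 CPM. Every KO library lay well under every WT library, and all 6 values rest on few counts. The log2 fold change was -1.51 (SE 0.45, 95% interval -2.46 to -0.55) and was not called (adjusted p = 0.163, edgeR; 0.0992 to 0.382 over the alternatives that kept the gene). Hadha and Hadhb, which share the promoter region printed above and handle long chains, had log2 fold changes near 0; their difference from Hadh was not tested. Hadha (chromosome 5, 30118304 to 30155162) was at 65.6, 69.3 and 71.7 CPM in WT and 75.8, 71.2 and 75.2 CPM in KO, with KO 2 under WT 3 (log2 0.11, 95% interval -0.08 to 0.29). Hadhb was at 15.5 ± 2.6 and 15.2 ± 3.2 CPM in WT and KO (SD, n = 3; log2 -0.016). Echs1, the short-chain enoyl-CoA hydratase, was at 14.4 ± 3.4 and 14.7 ± 2.2 CPM; its exons (701 counts) overlap Paox (530 counts) on the other strand.

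The isomerases Eci1 and Eci2 move double bonds of unsaturated fatty acids into the position that beta-oxidation needs. Eci1 was at 2.82, 3.78 and 3.77 CPM in WT and 2.56, 2.06 and 2.57 CPM in KO, without overlap (log2 -0.52, SE 0.36, adjusted p = 0.656, edgeR). Eci2 was at 11.2 ± 2.1 and 11.7 ± 1.4 CPM in WT and KO (SD, n = 3).

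Electrons from the acyl-CoA dehydrogenases pass through the electron transfer flavoprotein, made of Etfa and Etfb, to its ubiquinone oxidoreductase, Etfdh. Etfb (chromosome 7, 43444083 to 43457800) was at 64.2, 56.6 and 50 CPM in WT and at 44.8, 52.5 and 44.2 CPM in KO, with KO 2 above WT 3 (log2 -0.28, SE 0.11, adjusted p = 0.365, edgeR). Etfa was at 5.08 ± 1.1 and 3.80 ± 1.1 CPM in WT and KO (SD, n = 3; log2 -0.41, SE 0.31). Etfdh was at 3.07, 3.58 and 4.45 CPM in WT and at 6.20, 5 and 5.80 CPM in KO, all KO libraries being higher (log2 0.62, SE 0.28, adjusted p = 0.416, edgeR). The flavoprotein subunits were thus both below 0 and the oxidoreductase above 0 on the log2 fold change scale, with no call for any of them.

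**Figure D3:**
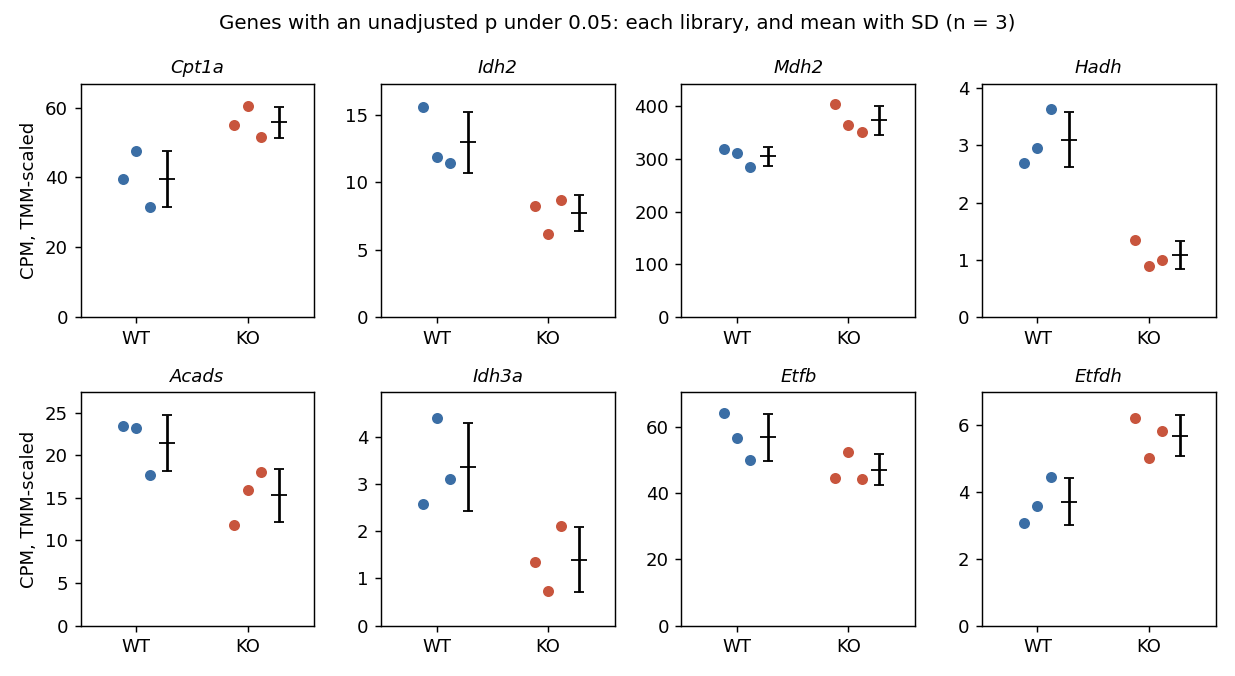
CPM of the 8 genes with an unadjusted p under 0.05, ordered by p; points are libraries (blue WT, red KO), horizontal bars with whiskers the mean and SD of 3 libraries. Groups do not overlap for Cpt1a, Idh2, Mdh2, Hadh, Idh3a and Etfdh, and overlap for Acads and Etfb.

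The summed macrophage markers and the summed platelet markers were lower in every KO library than in any WT library. Mean levels of Idh2, Idh3a, Acads, Hadh and Etfb were also lower in KO, with overlapping groups for Acads and Etfb. Relative to the WT mean, the summed macrophage markers were at 0.501, 0.540 and 0.605 in KO 1, 2 and 3, and the 6 platelet markers at 0.819, 0.899 and 0.826. The most abundant platelet marker, Gp1bb, did not share this (log2 0.05, SE 0.09), and the other 5 platelet markers together were at 0.642, 0.516 and 0.430. The 6 early precursor markers were at 0.843 to 1.079, most of it Cebpe; the other 5 were at 0.665 to 0.947 in KO and 0.879 to 1.13 in WT. Among them Mpo had a log2 fold change of -0.59 (SE 0.19, adjusted p = 0.193, edgeR). The 8 proliferation markers were at 0.922 to 0.951, most of it Hmgb2, and the other 7 were at 0.865 to 1.03 in KO and 0.883 to 1.10 in WT. Eosinophil and basophil markers summed to 47.3 to 66.2 CPM in WT and 29.1 to 42.0 CPM in KO. Ccr3, the most abundant of them, was at 34.7 ± 4.8 CPM in WT and 15.4 ± 6.5 CPM in KO (SD, n = 3). Mcpt8 also had a log2 fold change below 0 (-1.79), while Siglecf and Prg2 did not (0.24 and 0.0096). Other sums were higher in every KO library. B and plasma cell markers stood at 336 to 395 CPM in WT and 541 to 1318 CPM in KO, and neutrophil markers in KO at 1.10 to 1.18 of the WT mean. Of the 7 B and plasma cell markers, only the 3 called (Igkc, Jchain and Igha) had log2 fold changes above 0. The other 4 lay below 0, without a call (Cd79a -0.42, Cd79b -0.76, Ms4a1 -0.30 and Ighm -0.20). Sums of monocyte, erythroid, and T and NK cell markers overlapped. Nearly all of the monocyte sum was Ly6c2, at 1377 ± 112 CPM in WT and 1436 ± 76 CPM in KO (SD, n = 3). The other 4 tested monocyte markers had log2 fold changes below 0, without a call. Among these, the groups did not overlap for Ms4a6c (log2 -0.83, SE 0.28). The part of any of these cell types in the values of the 5 genes, or of the higher Mdh2, Cpt1a and Etfdh, was not tested. Summed levels of the set were closer to the WT mean. The 12 genes of the cycle stood at 669.5 to 711 CPM in WT and 711.2 to 773 CPM in KO, so that every KO library lay above every WT library, by a narrow margin. Without Mdh2 the other 11 summed to 385 to 391 CPM in WT and 347 to 396.5 CPM in KO, and the groups overlapped. The 15 genes of fatty acid oxidation stood at 322 to 348 CPM in WT and 333 to 342 CPM in KO, the 8 genes of pyruvate entry at 118 to 139 and 127 to 135 CPM, and the 4 cytosolic genes at 216 to 237 and 231.5 to 234 CPM.

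**Figure D4:**
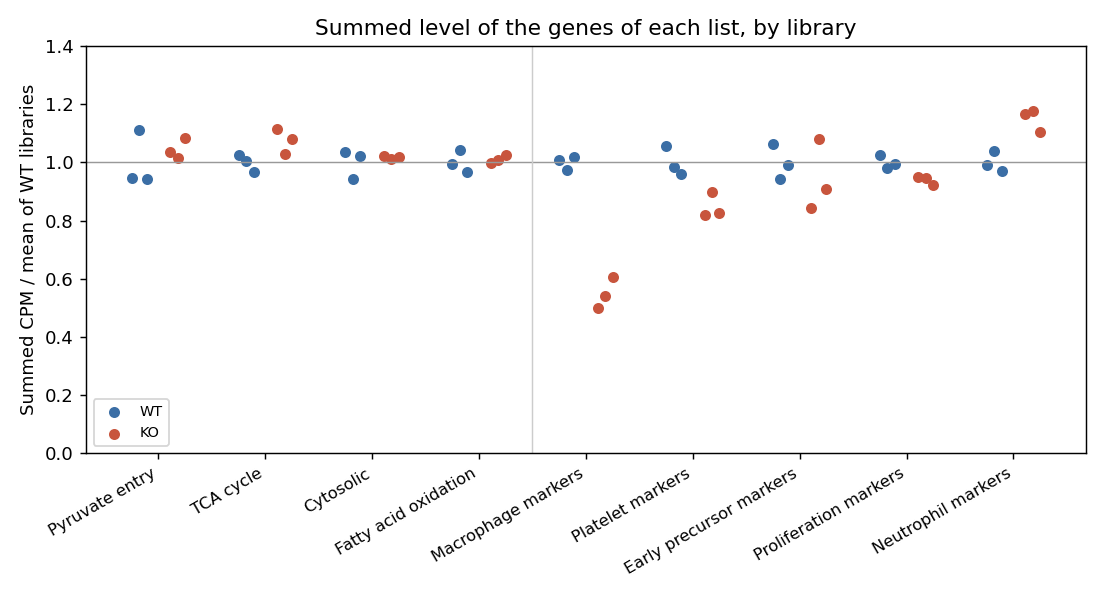
Summed CPM of the genes of each role (left of the vertical line) and of 5 marker lists (right), divided by the mean of the WT libraries; points are libraries (blue WT, red KO). The role sums lie between 0.943 and 1.12 of the WT mean in all libraries, while the macrophage markers lie at 0.501 to 0.605 in KO.

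Other genes of these pathways, 82 outside the set, were read from the same fit. Of 62 tested, edgeR and limma-voom called 0 (1.03% and 0.789% of all genes). DESeq2 and edgeR without a filter held 79 of the 82 and also called 0 (1.33% and 1.46% of all genes). At such shares, few calls would fall in a list of this size. At an unadjusted p under 0.05, 5 were higher and 1 was lower (together 9.68%, against 11.4% of all genes), and the median log2 fold change was 0.018. The 4 with the smallest p were Slc25a20, Cd36, Pdk2 and Acsl4. Cd36, a fatty acid transporter also carried by macrophages and platelets, was at 3.92, 3.17 and 1.35 CPM in WT and at 0.809, 0.588 and 1.45 CPM in KO (log2 -1.53, SE 0.54, adjusted p = 0.267, edgeR), with KO 3 above WT 3. Acsl4, which activates long polyunsaturated fatty acids, was at 24.7, 24.8 and 26.8 CPM in WT and 31.95, 30.15 and 30.2 CPM in KO, without overlap (log2 0.28, SE 0.12, adjusted p = 0.399, edgeR). By role, 9 genes each were tested for pyruvate use, the cycle with succinate dehydrogenase, the shuttles and glutamine entry, and other mitochondrial beta-oxidation; 8 for fatty acid uptake and activation; 7 each for peroxisomal oxidation and transcriptional regulators; and 4 for fatty acid synthesis. Of the regulators of fatty acid oxidation, Ppara was under the filter on low counts, with at most 1.48 CPM in any library.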

How the data were processed

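The authors deposited unscaled counts, whole numbers for each Ensembl gene, for 6 Lexogen QuantSeq libraries in 1 table. The submitters' processing notes list RSEM 1.2.3, DESeq2 and mm10 without saying what each was used for; aligner, annotation, strand setting and filters were not given in the sources used here. How reads shared by near-identical genes were counted is not given either. The last 300 bases of member transcripts were compared with all GENCODE vM21 transcripts (BLAST 2.17.0): 4 of 39 members (Eci2, Etfb, Hadhb, Suclg2) matched another gene over at least 100 bases at 95% identity or more, and the matching genes had 0 counts in all libraries where listed. Columns were assigned to samples by name and identifiers named from GENCODE vM21 (GRCm38, the assembly of mm10): 51596 of 51789 had a symbol.

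The test was edgeR 4.0.16's quasi-likelihood test (glmQLFit and glmQLFTest, R 4.3.3) with TMM factors, filterByExpr defaults (minimum count 10, total 15) and Benjamini-Hochberg adjustment over 10397 genes, group as the only term. SE is the log2 fold change divided by the root of the F statistic, and 95% intervals use the moderated degrees of freedom. Replicates within groups differed beyond counting noise (chi-square per degree of freedom 4.12 to 6.79). The procedure was tested on simulated counts. The members, roles and lists were chosen with earlier results of these data known. Values in every library were given for members called, for the 3 smallest p and 2 highest levels of each of 4 roles, and for members under the filter; Eci1, Cpt2 and Etfdh were added because their groups did not overlap. Of the other pathway genes the 4 with the smallest p are named, and Ppara was added after its values were seen. Marker lists are given by counts and sums, with called markers named. Mpo, Gp1bb and uncalled B and plasma cell, eosinophil and basophil, and monocyte markers were named for their part in a sum or their direction. Levels of the 2 most abundant markers are left out, for brevity, except for macrophages, Ccr3 and Ly6c2. Alternatives were DESeq2 1.42.0, limma-voom (limma 3.58.1), RLE and upper-quartile factors, total counts, no filter, a minimum of 5 CPM in 3 libraries, a block for the replicate number, and leaving out each library.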

Additional observations from a re-analysis of the deposited data

How the results depend on the processing

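Of 509 recomputed values, 483 kept their direction and side of the threshold, 23 changed sign and 3 passed it, namely Mdh2 with DESeq2 and, with no filter, Mdh2 and Cpt1a. Over all genes 107 were called, against 162 when scaled to total counts, 287 with no filter, and 49 to 97 when 1 library was left out; leaving out WT 1, 2 or 3, or KO 1 or 2, gave 57, 49, 62, 67 and 61. DESeq2 called 145 genes, 56.6% of them lower. Called members numbered 0, except 1 with DESeq2 and 2 with no filter. Scaling to total counts moved the median of all genes from 0.0057 to -0.098 and that of the members from -0.016 to -0.118; without 1 library the members' median ran from -0.097 (without KO 3) to 0.023. With at least 5 CPM in 3 libraries, 9 members dropped out, among them Hadh, Idh3a and Etfdh.

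Signs that changed belong to small values. With total counts, log2 fold changes were -0.061 for Pdha1, -0.060 for Idh3g, -0.0032 for Sucla2, -0.046 for Acadvl, -0.063 for Echs1 and -0.038 for Eci2. Without 1 library they ran from -0.065 to 0.12 for Pdha1, -0.18 to 0.019 for Dlat, -0.15 to 0.11 for Idh3b, -0.045 to 0.098 for Idh3g, -0.021 to 0.38 for Fh1, -0.23 to 0.044 for Mdh1, -0.065 to 0.16 for Acadvl, -0.077 to 0.25 for Echs1, -0.20 to 0.11 for Hadhb and -0.083 to 0.17 for Eci2. The cause was not tested.

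Samples of the same replicate number did not deviate together (correlations -0.020, -0.028 and -0.14). For pairs of unlike number the correlations ran from -0.17 (WT 2 with KO 1) to 0.19 (WT 2 with KO 3). Deviations were taken within groups of 3 libraries, so these correlations cannot show whether samples shared a preparation. With the replicate number as a block, 92 genes and 0 members were called, and the members' median was -0.028. Snph is at 0 counts in all WT libraries; an exact two-sided permutation test gave p = 0.1, the smallest that 3 against 3 libraries allow. Low counts limit Hadh, Idh3a and Suclg2, whose intervals are wide.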

Other observations

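Ratios of partner genes within each library were computed after the levels had been seen, so they are given without a test. Of 12 such ratios, the groups did not overlap for 5 and overlapped for 7, among them Hadha over Hadhb, Pdha1 over Pdhb and Dlst over Ogdh. Each of the 5 holds Idh2, Cpt1a, Idh3a or Mdh2, genes whose own groups did not overlap. The 5 ratios are thus no independent result, and no share over other gene pairs was computed. The ratio of Idh1 to Idh2, cytosolic over mitochondrial NADP-dependent isocitrate dehydrogenase, took the values 6.79, 7.49 and 9.06 in WT 1, 2 and 3, against 13.7, 18.6 and 11.8 in KO 1, 2 and 3. For the carnitine palmitoyltransferases, Cpt1a over Cpt2 was 2.40, 2.67 and 1.77 in the WT libraries, against 4.54, 3.70 and 3.55 in the KO libraries. The groups did not overlap for either ratio. Within the NAD-dependent isocitrate dehydrogenase, Idh3b over Idh3a was 4.86, 3.91 and 4.61 in the WT libraries, against 11, 16 and 7.79 in the KO libraries, with Idh3a at few counts in every library.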
